A study of Homo sapiens with 8 samples.

Results

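Weak HNF4A sites without GATA4 are the 3474 HNF4A peaks of ESO26 cells that had a −log10 q under 10 and overlapped no GATA4 peak by 1 bp or more. They made up 63.2% of the 5494 HNF4A peaks and were the largest of the 4 classes that these criteria give. The other classes held 1567 strong peaks (−log10 q of 10 or more) without GATA4, 243 weak peaks with GATA4 and 210 strong peaks with GATA4. A q is the expected share of false peaks among all peaks called at that value or a better one, so a smaller −log10 q means a less certain peak. The sites were chosen by this measured value, and their strength is therefore described below and not tested.

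ESO26 is a long-cultured human line derived from an adenocarcinoma of the oesophagus, grown in RPMI medium with serum. HNF4A was immunoprecipitated with an antibody to the protein itself, in 1 ChIP-seq library of cells for which the labels give no treatment. GATA4 was immunoprecipitated through a Flag tag in 1 further library, so its peaks are those of a tagged protein, and how that protein was introduced is not given in the sources used here. RNA-seq of the line comprised 2 control libraries and 2 libraries after knockdown of HNF4A by siRNA, a short RNA that lowers the mRNA it matches. These were used only for the level of the 2 factors and of lineage markers. All values of the sites come from 1 library per factor and have no replicate check.

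HNF4A is a nuclear receptor that binds DNA as a homodimer at direct repeats of a short half-site, and it maintains gene programmes of liver, intestine and kidney epithelium. GATA4 is a zinc-finger factor that binds GATA motifs and acts with HNF4A in endodermal tissues such as stomach and proximal intestine. A ChIP-seq peak is a place where more DNA fragments were recovered with the antibody than a background predicts.

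Both factors were expressed in the line. HNF4A had 4129 and 3937 normalized counts in the control libraries and 1140 and 932 in the knockdown libraries, so the groups did not overlap. HNF4A fell by 1.97 ± 0.095 (SE) on the log2(normalized count + 1) scale, and limma gave it an adjusted p of 1.59e-05. In that test 14.1% of all genes were called in either direction and 8.11% were called lower. Without the variance trend the adjusted p of HNF4A in limma was 0.0919. For GATA4 the control libraries held 745 and 597 normalized counts and the knockdown libraries 553 and 432. Its log2 fold change of -0.45 was not past the threshold (adjusted p = 0.0709 in limma), and it was past it with the replicate number as a block (adjusted p = 0.0127). It was also past it without control replicate 2 (-0.61, adjusted p = 0.0104 in limma), and the change was -0.29 without control replicate 1 and -0.27 without siHNF4A replicate 2. The epithelial genes EPCAM, CDH1, KRT8, KRT18 and KRT19 had control means between 6157 and 30691 normalized counts, and the gastrointestinal genes CDX2, MUC13 and VIL1 between 4664 and 12242. GATA6, of the same gastrointestinal group, had a control mean of 1393. Epithelial and columnar markers were thus present. The squamous keratins KRT5 and KRT14 had control means of 22.4 and 1.46, the 4 stromal genes COL1A1, COL1A2, PDGFRB and VIM lay between 4.11 and 143.3, the endothelial gene VWF had 7.62 and the leukocyte gene PTPRC 0.78. No value was given for the squamous gene TP63 or the endothelial gene PECAM1.

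The weak sites were enriched several fold over background. Their fold enrichment at the summit, the highest point of a peak, had a median of 5.65 and ran from 2.29 to 7.84. The middle 90% of the sites lay between 4.04 and 7.38. Their −log10 q ran from 2.06 to 9.998 with a median of 6.004. For strong peaks without GATA4 the median fold was 9.09 and the highest 38.7. Weak peaks that did overlap GATA4 had a median fold of 5.60 and a median −log10 q of 6.004, close to the values of those that did not. The fold and q are the authors' deposited values.

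**Figure D1:**
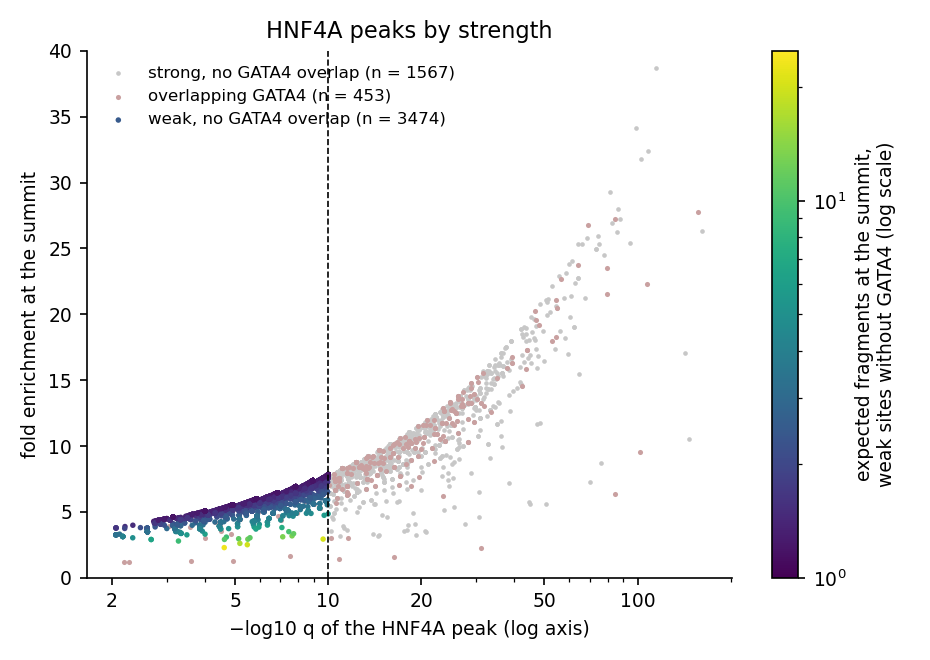
Fold enrichment at the summit against −log10 q (log axis) for all 5494 HNF4A peaks, 1 point per peak, with the threshold of 10 as a dashed line. Weak sites without GATA4 are coloured by the number of fragments expected at the summit from the background (log colour scale), and those with the highest background lie at the lowest folds, down to 2.29.

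The number of DNA fragments behind each site could be recovered from the deposited values. MACS2, the peak caller named in the submitters' processing notes, divides the fragments at the summit plus 1 by the expected fragments plus 1 to obtain the fold, and takes p from a Poisson distribution with that expectation. Under this reading a whole number of fragments gave the deposited −log10 p of each of the 5494 HNF4A peaks to within 0.001. The largest difference among the weak sites was 2.58e-05, and for every weak site the next best whole number missed by at least 0.00601. Weak sites had a median of 14 fragments at the summit, with a range from 9 to 62. An exact 95% Poisson interval around 14 fragments runs from 7.65 to 23.5 and covers counting error only. The most frequent number was 13, at 456 sites, and 96.0% of the sites had 20 or fewer. Strong peaks without GATA4 had a median of 24 fragments and at least 17.

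For the sites nearest the threshold, the class came down to a single fragment. A −log10 q of 9 or more was held by 298 weak sites. The background expectation was lowest at 1.17 fragments, a value shared by 752 weak sites (21.6%, exact 95% binomial interval 20.3 to 23.05%). At this background, 9 fragments gave a −log10 q of 3.14, 12 fragments gave 5.86 and 16 fragments gave 9.998, the highest value a weak site held there. With 17 fragments the −log10 q was 11.1, and the peak counted as strong. The 74 weak sites at 16 fragments and the 42 strong peaks without GATA4 at 17 fragments on this background were 1 fragment apart.

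**Figure D2:**
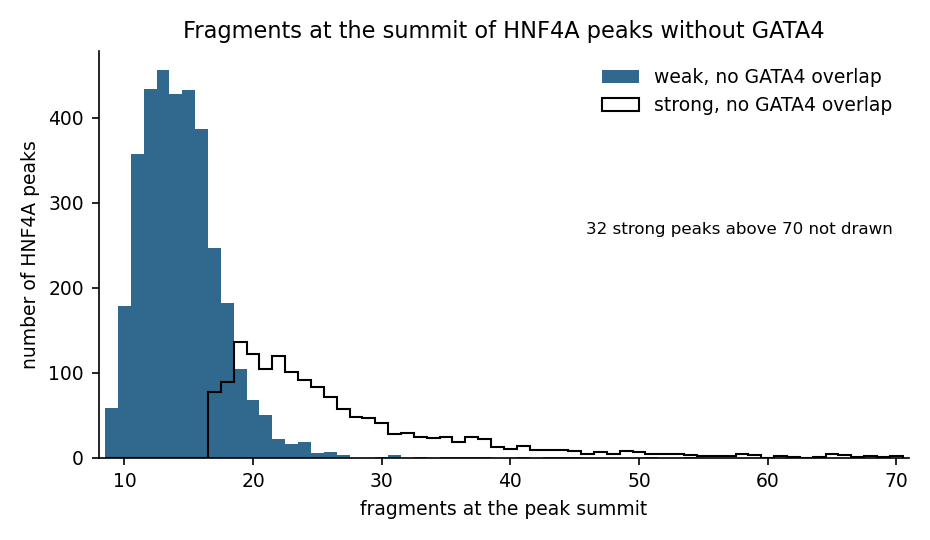
Histogram of the number of fragments at the summit for weak sites (filled) and strong peaks (line) without GATA4. Weak sites centre on 14 fragments and strong peaks begin at 17, with a stretch above 17 where both classes occur.

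Above 16 fragments both classes occurred, and the weak share fell as fragments rose. Of the weak sites 741 (21.3%) had 17 or more fragments. Among the 324 peaks without GATA4 that had exactly 17 fragments, 247 were weak. Of the 190 with 20 fragments 68 were weak, and of the 89 with 25 fragments 6 were. A background under 2 expected fragments was found at 75.1% of the weak sites, with a median of 1.64. The median background of strong peaks without GATA4 was also 1.64.

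The values just inside and just outside the threshold show the same closeness. The highest −log10 q among weak sites, 9.998, was shared by 76 sites on 22 chromosomes. Among them chr1:14125513-14126317 (805 bp), chr1:25241106-25241954 (849 bp) and chr1:27890502-27890811 (310 bp) each had 16 fragments and a fold of 7.84. Just outside, 4 peaks without GATA4 tied at 10.1, among them chr4:38080262-38081018 and chr9:132244876-132245236, each with 17 fragments and a fold of 7.65. Coordinates are on hg19, the build named in the submitters' processing notes, and are counted from 1. At the other end 14 sites on 9 chromosomes tied at the smallest −log10 q of 2.06. The site chr10:22726916-22727179 is 1 of these, with 13 fragments against 3.28 expected, and chr19:41768557-41768872 is another, with 9 fragments against 1.64 expected.

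Weak sites were narrow. Their median width was 369 bp against 573 bp for strong peaks and 413 bp for weak peaks with GATA4. The shortest width in the list, 262 bp, was held by 358 weak sites (10.3%) and by 3 strong peaks without GATA4. The widest weak site, chr11:2152244-2154381, spanned 2138 bp with 16 fragments at its summit, and another HNF4A peak began 281 bp away. The summit lay near the middle of the peak in the median (48.9% of the width), but it fell in the first or last 25% of the width in 19.4% of weak sites (exact 95% interval 18.1 to 20.7%). In strong peaks without GATA4 this share was 5.87% (4.76 to 7.15%), and in weak peaks with GATA4 it was 21.8% (16.8 to 27.5%). Width and summit come from the same signal as the q, so these are descriptions.

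The distance of weak sites to other HNF4A peaks, measured between peak edges, was compared with that of strong peaks. The median distance from a weak site to the nearest other HNF4A peak of any class was 73107 bp, and 1470 sites (42.3%) had none within 100 kb. At least 1 lay within 100 kb of 57.7% of the weak sites (exact 95% interval 56.02 to 59.3%) and of 60.5% of the strong peaks without GATA4 (58.03 to 62.9%). Within 10 kb the shares were 16.9% (587 sites, 15.7 to 18.2%) and 17.5% (15.6 to 19.5%), and the intervals overlapped at both distances. Within 50 kb they did not, with 40.2% (38.6 to 41.9%) of the weak sites against 45.4% (42.9 to 47.9%) of the strong peaks. The nearest peak of these 587 sites was itself a weak site without GATA4 in 66.3% and a strong peak without GATA4 in 25.2%, near the 63.2% and 28.5% that these classes make up in the whole list. Joining weak sites at most 10 kb apart gave 192 groups of 2 or more, with 407 sites in all, and 173 of the groups were pairs.

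The position of the weak sites relative to strong HNF4A peaks and to GATA4 peaks was not used by their choice, apart from the overlap itself. That overlap had already removed 11.8% of all strong HNF4A peaks (210 of 1777) and 6.54% of all weak ones (243 of 3717). The GATA4 shares below are therefore those of the peaks that remained, and not of all weak and strong peaks. A strong HNF4A peak lay within 10 kb of the summit of 203 weak sites, which is 5.84% (exact 95% interval 5.09 to 6.68%). Among strong peaks without GATA4 another strong peak was this close in 7.79% (6.51 to 9.22%). A GATA4 peak lay within 10 kb of 5.84% of the weak sites (5.09 to 6.68%) and of 7.15% of the strong peaks without GATA4 (5.92 to 8.54%). The intervals of the classes overlapped at this distance in both comparisons. The 203 weak sites near a strong peak and the 203 near a GATA4 peak are different sets that share 51 sites, and 3119 weak sites (89.8%) were near neither.

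The order of the classes depended on the distance. Within 1 kb the weak sites had the higher shares, with 1.18% (0.848 to 1.598%) against 0.893% (0.489 to 1.49%) for strong HNF4A peaks and 1.18% (0.848 to 1.598%) against 0.574% (0.263 to 1.09%) for GATA4 peaks. For GATA4 this order holds only for peaks left after the overlap rule. The rule removed 11.8% of all strong HNF4A peaks and 6.54% of all weak ones, so it is not the order of all peaks. For any other HNF4A peak, measured between peak edges and not from the summit, the shares within 1 kb were 6.10% (5.33 to 6.95%) and 4.28% (3.33 to 5.40%). Each of these pairs of intervals within 1 kb overlapped. At 50 kb the strong peaks had the higher shares. A strong HNF4A peak was within 50 kb of 18.1% of the weak sites (16.8 to 19.4%) and of 22.5% of the strong peaks without GATA4 (20.5 to 24.7%). For GATA4 peaks the shares within 50 kb were 17.5% (16.3 to 18.8%) and 21.7% (19.7 to 23.8%). These intervals did not overlap. At 100 kb they still did not for strong HNF4A peaks, with 27.9% (26.4 to 29.4%) against 33.3% (30.98 to 35.7%), but they did for GATA4 peaks, with 27.9% (26.4 to 29.4%) against 31.5% (29.2 to 33.8%). Peaks of 1 library are not replicates, and no test was made. The median distance to a strong peak was 281850 bp for weak sites and 229830 bp for strong peaks, and to a GATA4 peak 269788 bp and 226797 bp.

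**Figure D3:**
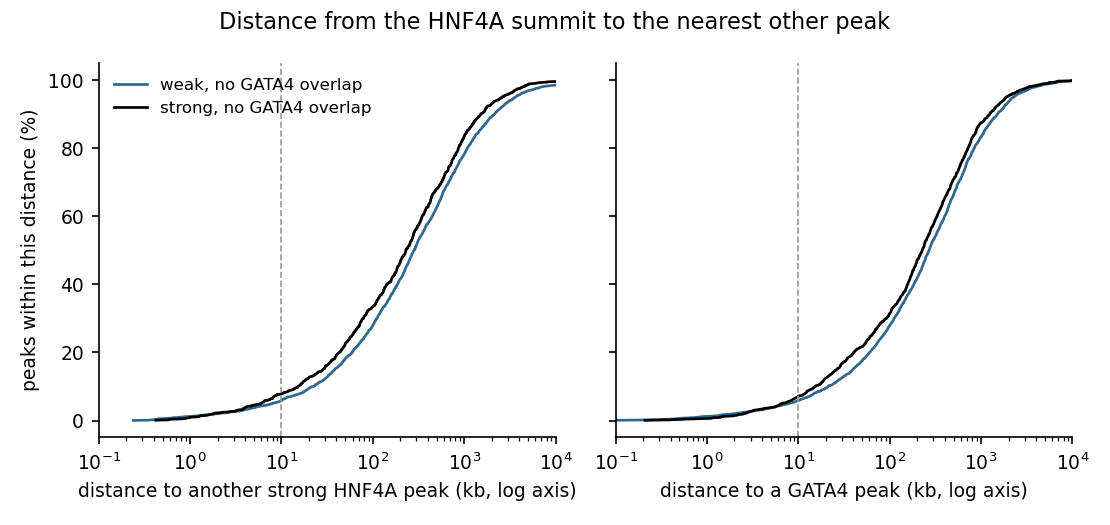
Cumulative share of peaks (%) against the distance in kb (log axis) from the HNF4A summit to another strong HNF4A peak (left) and to a GATA4 peak (right), for weak (blue) and strong (black) peaks without GATA4. The weak curve lies above the strong one at 1 kb and below it at 10 kb (dashed line), where weak sites reach 5.84% in both panels and strong peaks 7.79% (left) and 7.15% (right), and at 50 kb. Peaks that overlap GATA4 are left out of the curves (11.8% of all strong and 6.54% of all weak HNF4A peaks). The order at 1 kb in the right panel is therefore not that of all HNF4A peaks.

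Within the weak class, neither share rose or fell steadily with −log10 q. In the 8 bins of −log10 q from 2 to 10, each 1 unit wide, the share near a strong HNF4A peak lay between 4.80% and 6.77%. The share near a GATA4 peak lay between 2.60% (exact 95% interval 1.25 to 4.72%), at −log10 q from 8 to 9, and 6.91%, from 4 to 5. The share of weak HNF4A peaks left out of the class for overlapping GATA4 lay between 5.08% and 8.08% across the same bins. Above the threshold it was 9.60% between 10 and 15, 9.75% between 15 and 20, 18.4% (exact 95% interval 14.2 to 23.2%) between 20 and 30, and 14.8% (10.4 to 20.1%) from 30 upward. Peaks without GATA4 were also wider in these upper bins, with median widths of 495 to 764.5 bp against 339 to 450.5 bp in the bins under 10. Whether the width of a peak bears on its overlap was not tested.

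Some weak sites missed a GATA4 peak by little. A GATA4 peak ended or began within 250 bp of 16 weak sites, and within 1 kb of 45. The nearest case was chr10:5190137-5190398, with 11 fragments and a fold of 5.53, at 2 bp from a GATA4 peak at chr10:5189497-5190135 of fold 10.7 (adjacent peaks count as 1 bp apart). A strong HNF4A peak lay 413 bp from the summit of the same site. The next was chr9:93799801-93800516, with 16 fragments, at 8 bp from a GATA4 peak of fold 7.26. On chromosome 12 the sites chr12:48212928-48213317 and chr12:48213986-48214376 lay on either side of 1 GATA4 peak, at 322 bp and 15 bp from it. The GATA4 neighbour with the largest −log10 q among those within 250 bp, with 23.03 in its own list, lay 90 bp from chr2:208697120-208697518, a weak site of 21 fragments. Of the GATA4 peaks within 250 bp of these sites, 6 of 16 had a −log10 q of at least 10, against 40.6% of all GATA4 peaks, and their median was 7.36 against 8.59 for all GATA4 peaks.

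Weak sites occurred on every autosome and on the X chromosome, from 387 on chromosome 1 and 318 on chromosome 2 to 21 on chromosome 21. The few on chromosome Y or the mitochondrial genome are counted in the totals but are not given by chromosome. Of all HNF4A peaks without GATA4, 68.9% were weak (exact 95% interval 67.6 to 70.2%). The interval of 20 of the 23 chromosomes reached this value. The 3 others lay above it: chromosome X with 82.5% (47 of 57 peaks, 70.1 to 91.3%), chromosome 19 with 77.1% (121 of 157, 69.7 to 83.4%) and chromosome 4 with 76.03% (184 of 242, 70.1 to 81.3%). The lowest share was 63.8% on chromosome 14 (55.5 to 71.5%). These intervals were not adjusted for the number of chromosomes.

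The median background of the weak sites also varied by chromosome. It was 2.15 expected fragments on chromosome 13 and 2.13 on chromosome 15, and 1.17, the lowest value in this list, on chromosomes 19, 21, 22 and X. Median fragments were 16 on chromosome 13, 15 on chromosome 15 and 12 on chromosomes 19, 22 and X. They were 14 on chromosome 21, and 15 on chromosome 12 at a median background of 1.505. Fragments and background both enter the q that chose the sites, so these values are a description.

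**Figure D4:**
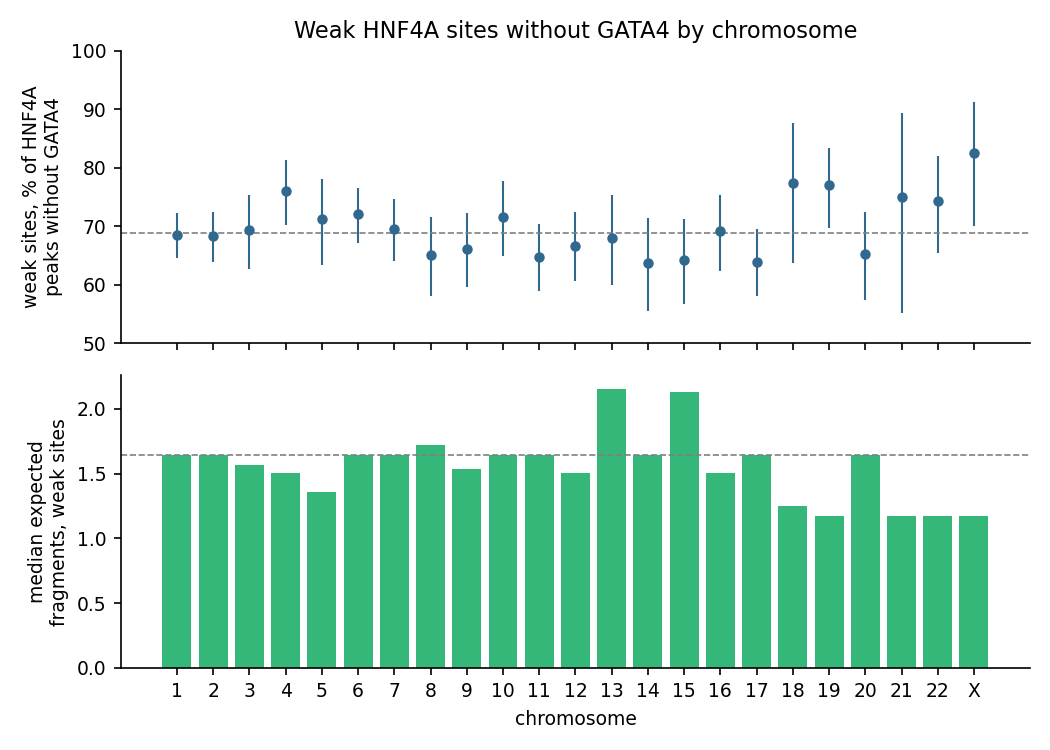
Top, weak sites as a percentage of HNF4A peaks without GATA4 on each chromosome, with exact 95% binomial intervals and the share of 68.9% over all chromosomes as a dashed line; bottom, the median number of fragments expected at the weak sites, with the overall median of 1.64 dashed. Chromosomes X, 19 and 4 lie above the overall share, and chromosomes 13 and 15 have the highest background.

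The sites were spread thinly over the genome, and a few regions held many. Divided into bins of 1 Mb, the autosomes and X had 1506 bins with a weak site, with a median of 2 sites in each, and 168 bins held 5 or more. The 2 bins with most weak sites, with 16 and 14, lay on chromosome 6 at 28 and 26 Mb. The chromosome 6 bin between them and 2 bins on chromosome 11 tied at 12 sites, and 1 bin on chromosome 7 and 2 on chromosome 16 held 11. Between chr6:26104919 and 28953914 there were 55 HNF4A peaks, of which 42 were weak and without GATA4, 9 were strong and without GATA4 and 4 overlapped GATA4. The region was chosen for its number of weak sites, so their share of its peaks is not compared with the rest. The median background of the weak sites there, 1.64 expected fragments, equalled that of all weak sites, and their median of 13 fragments was 1 below it.

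The densest 100 kb of weak sites lay in this region, at chr6:28865865-28953914. It held 8 HNF4A peaks, all weak, with a median fold of 6.10 and 11 to 20 fragments per site. The site with most fragments there was chr6:28908798-28909525, with 20 against 2.46 expected, and the largest fold was 6.82 at chr6:28911311-28911754, with 17 fragments. No GATA4 peak lay between the first and the last of them, and the nearest one, chr6:28863408-28863689, lay 2176 bp before the first. The nearest strong HNF4A peak lay between 16638 and 104217 bp from the summits of these sites. The run chr6:28907254-28921267 held 5 of them, the longest chain of weak sites at most 10 kb apart. Chains of 4 were found at chr7:99063417-99071116 and chr19:18487939-18501601, with 11 to 17 fragments per site. The short arm of chromosome 6 carries large clusters of histone and tRNA genes. In RefSeq (GRCh38.p14), 155 of 465 tRNA genes and 55 of 74 clustered histone genes lie on chromosome 6. Whether the weak sites lie on such genes was not tested, since that annotation is of another build.

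A small set of weak sites had many fragments and a high background, which was less frequent among weak sites than among the other classes. At 27 weak sites (0.78%, exact 95% interval 0.51 to 1.13%) the background was 5 expected fragments or more. The share was 3.13% (2.32 to 4.11%) in strong peaks without GATA4, 3.29% (1.43 to 6.38%) in weak peaks with GATA4 and 3.81% (1.66 to 7.37%) in strong peaks with GATA4. Of the 27 weak sites 11 lay on chromosome 17 and 10 on chromosome 12. These sites were singled out after their values were seen. Background also enters the q that chose the classes, so these shares are a description. The largest number of fragments at any weak site was 62, at chr17:37831251-37832078, against 20.4 expected, with a fold of 2.94 and a −log10 q of 9.62. The site with the lowest fold of all, 2.29 at chr17:37856341-37856839, had 54 fragments against 22.98 expected. On chromosome 12 the highest values were 38 fragments against 12.3 expected at chr12:48337498-48337899. Each of these 3 sites was weak by its fold and q, while its fragments exceeded the median of 24 of strong peaks without GATA4.

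The 500 kb with most HNF4A peaks of any class lay nearby on chromosome 17, from 36761011 to 37132427. It held 23 HNF4A peaks, of which 7 were weak sites without GATA4, 14 were strong without GATA4 and 2 overlapped GATA4. The 7 weak sites had 33 to 45 fragments, a median background of 11.5 expected fragments and folds from 2.61 to 3.35. The summit of 1 of them, chr17:36886991-36887333 with 44 fragments, lay 368 bp from a strong peak, and that of another, chr17:36861185-36861567 with 36 fragments, lay 430 bp from one.

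Some of these regions had a high background in the GATA4 list as well. Fragments and background were recovered in the same way for all 2607 GATA4 peaks. In the bin of chromosome 17 from 37 to 38 Mb the median background was 14.9 expected fragments at the 6 weak HNF4A sites and 12.4 at the 7 GATA4 peaks. In the bin of chromosome 12 from 48 to 49 Mb it was 6.56 at 4 weak sites and 4.09 at 3 GATA4 peaks. In the chromosome 17 bin at 36 Mb it was 10.9 at 6 weak sites and 4.95 at 2 GATA4 peaks. Other weak sites of high background had a nearest GATA4 peak of low background. It was 9.03 against 1.31 at chr7:5567030-5567315 and 19.7 against 2.19 at chr17:38375270-38375633, with GATA4 peaks 108323 and 64716 bp away. Over the 117 bins with at least 3 weak sites and 3 GATA4 peaks, Spearman's rho between the 2 backgrounds was 0.52, given as a description. Where summits of the 2 lists lay within 100 bp of each other (175 peaks), the HNF4A background was a median of 1.48 times the GATA4 background, and 76.6% of these ratios fell between 1.4 and 1.6. Whether the lists were made with a shared background library is not given in the sources used here, so the backgrounds may not be independent.

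**Figure D5:**
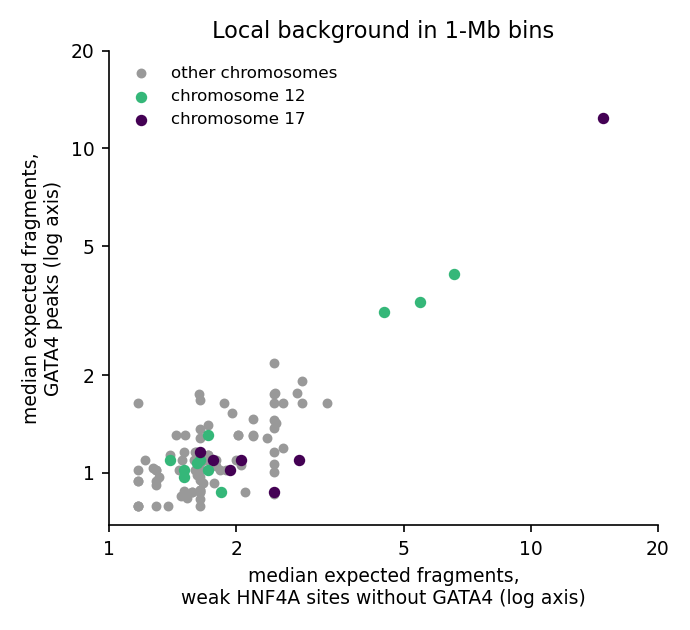
Median number of expected fragments at GATA4 peaks against that at weak HNF4A sites without GATA4 in 117 bins of 1 Mb (both axes log), 1 point per bin. The chromosome 17 bin at 37 Mb (14.9 at weak sites and 12.4 at GATA4 peaks) and 3 bins of chromosome 12 stand apart from the other bins.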

How the data were processed

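The peak lists are narrowPeak files without a header. The submitters' processing notes name Bowtie, Bowtie2, Trim Galore, Picard and MACS2 and the build hg19, without settings. The authors deposited for each peak a fold (ratio to background), −log10 p, −log10 q, a score (10 times the −log10 q, cut to whole numbers) and the summit. The total fragments of each ChIP library and any input control are not given in the sources used here. Overlap was at least 1 bp. Fragments and expected fragments at each summit were solved from fold and −log10 p with scipy 1.17.1 (tolerance 0.001) and tested on simulated data. Shares have exact 95% binomial intervals over peaks, which cover counting error only. The RNA-seq table holds a normalized count per gene, a signal the authors deposited without naming the method, and library sums were 17912507 to 18613685. It was tested with limma 3.58.1 (trend, log2(normalized count + 1), mean of at least 10, Benjamini-Hochberg, 15577 genes, 2 libraries per group, although the series' design text speaks of triplicates). Whether these libraries are separate cultures is not stated, so p-values measure the spread between them. No genome or annotation of hg19 was used, so motifs, sequences, gene positions and genes near the sites were not analysed here.

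Regions named are those with the largest fold, largest and smallest −log10 q (5 each, ties in file order), the widest, the closest to GATA4, the 5 just outside the threshold, and the members of the densest windows. Others are marked or were chosen after their values were seen, as were the fragment recovery, the 1-Mb bins and the chains. The sites and lists were chosen with earlier results of these data known.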

Additional observations from a re-analysis of the deposited data

How the results depend on the processing

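The number of weak sites, 3474, lay between 3337 and 4598 under 5 alternatives and was 1125 with a −log10 q under 5. The share near a strong HNF4A peak (5.84%) was 3.71% within 5 kb, 18.1% within 50 kb and 4.89% for sites with a −log10 q under 5. The share near a GATA4 peak (5.84%) was 3.68%, 17.5% and 6.76% under the same settings, and 8.17% with a reciprocal overlap of 50%, which admits sites that overlap GATA4 partly. Leaving out chromosome 6 or 17 bins of high background, chosen after the data were seen, kept both shares inside their intervals. The HNF4A log2 fold change of -1.97 was not past the threshold without the variance trend (adjusted p = 0.0919 in limma), and lay between -2.11 and -1.82 with 1 library left out. For GATA4 the replicate block, which left the log2 fold change at -0.45, gave a call. Same-numbered libraries did not deviate together (Pearson correlation -0.019 over 15577 genes), and the shared numbers were treated as labels only. With 1 library left out, the GATA4 change lay between -0.62 and -0.27, and it was called without control replicate 2 (adjusted p = 0.0104 in limma). Motif, transcription start and nearby-gene settings were not run, since no hg19 genome or annotation was used. A depth of 9 to 20 fragments at most sites limits how far weak and strong sites can be told apart.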
